A study of Mus musculus with 8 samples.

Results

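The genes described here mark macrophages, antigen-presenting cells and other leukocytes. They are 33 genes, given by name, out of 54532 in the deposited table of read counts, and all 33 had a row there. Of these, 32 passed the filter on low counts, which left 16205 genes for the test, and Cd3e did not. RNA had been sequenced from first molars of mouse pups of the C57BL/6 strain, 4 wild-type libraries (WT 2, 3, 4 and 5) and 4 libraries labelled wdr72-/- (KO 1, 3, 4 and 5). Neither group had any other treatment or allele named. The pulp had been taken out of each molar and the rest was homogenised whole, so that the labelled ameloblasts, the epithelial cells that make enamel, came with the other cells still on the molar. The age label reads P12 and the dissection protocol P13. Which exons of Wdr72 are missing is not stated, nor whether a library came from 1 pup or several, so the p-values reflect nothing beyond the spread among the libraries, which may be technical.

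Macrophages are tissue phagocytes that descend from monocytes or from embryonic precursors and depend on signalling through the receptor Csf1r. They clear dying cells and debris, tag targets with complement, and, like dendritic cells and B cells, show peptides to T cells on MHC class II molecules. During enamel maturation many ameloblasts die and matrix is removed. Around an erupting molar, osteoclasts, which share the monocyte lineage and many of its genes, resorb the bone above the crown.

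No member changed by edgeR's quasi-likelihood test at an adjusted p of 0.05, where 0.0309% of all tested genes passed in either direction. The smallest adjusted p of a member was 0.137, for Csf1r. By direction alone, 29 of 32 members (90.6%) had a positive log2 fold change of KO against WT, against 53.1% of all tested genes, and 3 had a negative one (46.9%). Their median log2 fold change was 0.31, against 0.021 over all tested genes. The members share libraries and many share cells, so they are not independent observations. At an unadjusted p of 0.05, 10 members were higher (8.7% of all tested genes) and 0 were lower (6.98%). The 4 KO values lay above the 4 WT values for 3 members, Csf1r, Cd68 and Trem2, and 5.5% of all tested genes did the same. The reverse held for 0 members (5.44% of all tested genes). DESeq2 called 2 members higher, Csf1r and Cd68 (1.83% of its genes) and 0 lower (1.04%), and limma voom called 5 higher, Csf1r, Cd68, Trem2, Mrc1 and Ctss (4.34%), and 0 lower (2.28%).

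The values depended in part on KO 5. Without it, 27 of 32 members had a positive value (49.6% of all genes), 7 were higher at an unadjusted p of 0.05 (7.97%), and the median log2 fold change was 0.16, against -0.0019 over all genes. Without KO 1 and KO 5 the numbers were 23 members (48% of all genes), 4 members (6.55%) and a median of 0.099, against -0.010 over all genes. In bulk RNA, more cells of a type and more RNA per cell cannot be told apart.

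Depth was 17084475 to 21887462 counted reads per library, and the tested members had 21 to 2369 reads in a library. All 33 members together held 0.0455 ± 0.0017% of the reads in WT and 0.0548 ± 0.0073% in KO (SD, n = 4 each). A level in CPM is the reads of a gene per 1000000 of the library total after TMM scaling, and takes no account of gene length. Wdr72 itself was at 173, 245, 327 and 227 CPM in WT and at 102, 37.8, 24.9 and 15.8 CPM in KO 1, 3, 4 and 5 (log2 fold change -2.43, SE 0.47, adjusted p = 0.080 in edgeR). All KO libraries were below all WT libraries, and the library labelled KO 1 kept the most. The 8 ameloblast markers, among them Ambn and Amelx, summed to 52542 CPM or more in each library, so defining genes of the labelled cell type were present. Pulp and follicle mesenchyme markers summed to 20175 to 38101 CPM in WT against 27544 to 43941 CPM in KO, although pulp had been removed.

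**Figure D1:**
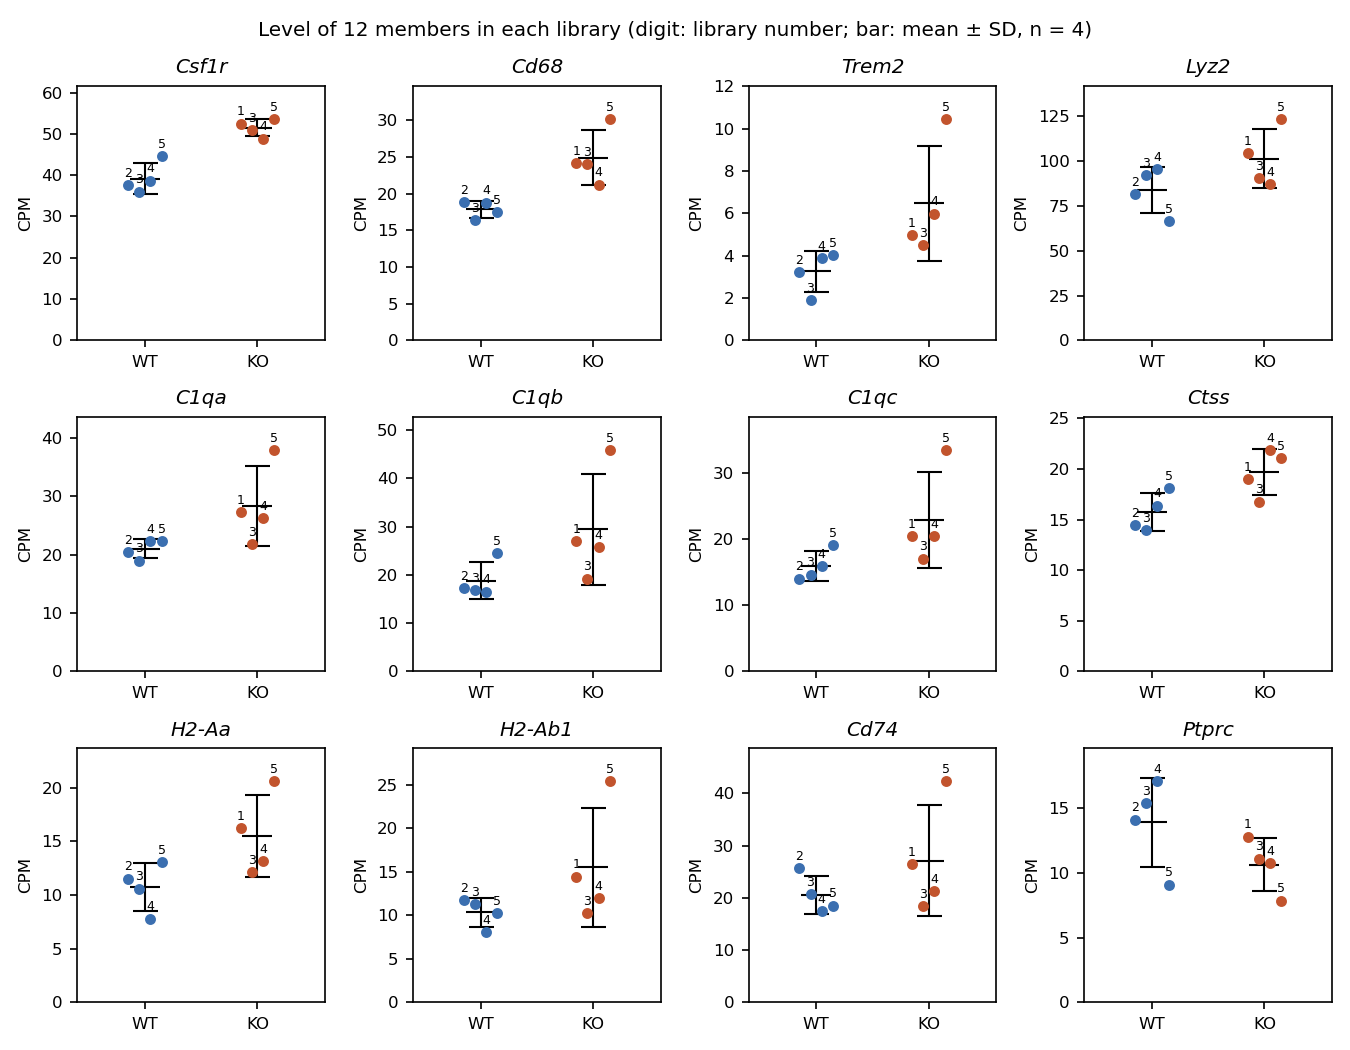
Levels in CPM (y axis, from 0) of 12 members in the 4 WT and 4 KO libraries; points are libraries with their number, bars are mean ± SD. Csf1r, Cd68 and Trem2 have all 4 KO points above the 4 WT points, while KO 5 is the highest point for C1qa, C1qb, C1qc, H2-Aa, H2-Ab1 and Cd74 and the lowest for Ptprc.

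Among the genes of macrophages and monocytes, 11 of 12 had a positive value and the median log2 fold change was 0.24. Csf1r encodes the receptor for the macrophage growth factors CSF1 and IL-34. Its level was 37.5, 36.0, 38.6 and 44.5 CPM in WT 2, 3, 4 and 5, and 52.5, 50.9, 48.8 and 53.6 CPM in KO 1, 3, 4 and 5. The lowest KO library was above the highest WT library, and the KO values lay close together. The log2 fold change was 0.39 (SE 0.10, adjusted p = 0.137 in edgeR). It was 0.37 without KO 5 and 0.28 after correction for GC content and gene length. The adjusted p was 0.021 in DESeq2 and 0.012 in limma voom, and it ran from 0.012 to 0.76 over all alternatives. Csf1r overlaps Hmgxb3 on the other strand, which had 67.0% of its number of reads, and its count is therefore uncertain.

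Cd68, a lysosomal membrane glycoprotein of phagocytes, was at 18.8, 16.4, 18.8 and 17.5 CPM in the WT libraries and at 24.1, 24.0, 21.2 and 30.2 CPM in KO 1, 3, 4 and 5. The groups did not overlap, and the WT libraries differed by little (SD 1.18 CPM). The log2 fold change was 0.48 (SE 0.13, adjusted p = 0.146 in edgeR, from 0.036 to 0.70 over the alternatives). It was 0.37 without KO 5 and 0.39 after correction for GC content and gene length. No gene with over 10% as many reads overlaps Cd68.

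Lyz2, the lysozyme of macrophages and neutrophils, was the most abundant member. It was at 81.3, 91.9, 95.4 and 66.6 CPM in WT and at 104, 90.2, 86.9 and 123 CPM in KO, so that KO 3 and KO 4 lay within the WT range. The log2 fold change was 0.27 (SE 0.15, adjusted p = 0.379). It was 0.16 without KO 5 and 0.075 without KO 1 and KO 5. Its near copy Lyz1 can share reads with it. Cd14, the co-receptor for bacterial lipopolysaccharide, was at 2.77, 3.10, 2.14 and 3.67 CPM in WT and at 4.81, 3.12, 4.01 and 5.51 CPM in KO. KO 3 was below WT 5, and the other KO libraries were above all WT libraries (log2 fold change 0.58, SE 0.23, adjusted p = 0.277).

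Scavenger receptors of resident tissue macrophages had values of either sign. Mrc1, the mannose receptor CD206, was at 15.6, 15.2, 17.6 and 22.8 CPM in WT and at 19.6, 24.1, 24.6 and 16 CPM in KO. WT 5 was the highest WT library and KO 5 the lowest KO library. The log2 fold change was 0.25 (SE 0.17, adjusted p = 0.485), and limma voom, which gives libraries unequal weights, gave 0.49 with an adjusted p of 0.034. Cd163, the scavenger receptor for haemoglobin, was at 3.05 ± 0.91 CPM in WT against 2.48 ± 0.66 CPM in KO (SD, n = 4 each; log2 fold change -0.29, SE 0.27). Its reads were few, 34 to 76 a library.

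Other macrophage genes differed by less than the spread between libraries. Adgre1, the F4/80 antigen, was at 9.23 ± 1.18 CPM in WT against 9.40 ± 1.73 CPM in KO. Mpeg1, the pore-forming perforin-2, was at 21.0 ± 2.51 and 21.6 ± 2.75 CPM. Their approximate 95% intervals for the log2 fold change were -0.29 to 0.35 and -0.21 to 0.30. Both values turned negative when scaled to library totals (-0.015 and -0.00053). Itgam, the CD11b integrin chain, was at 2.77 ± 0.89 and 3.09 ± 0.59 CPM, and Ms4a7, a membrane protein of the MS4A family, at 4.73 ± 0.96 and 5.52 ± 0.67 CPM. Cx3cr1, the fractalkine receptor, was at 11.1 ± 2.29 and 12.1 ± 1.98 CPM. Its gene spans several others, of which Wdr48 had 413% of its number of reads, and its count is therefore uncertain. Aif1, the actin-bundling protein IBA1, was at 2.88 to 4.03 CPM in WT, at 3.53 to 4.21 CPM in KO 1, 3 and 4, and at 8.27 CPM in KO 5. Its log2 fold change was thus 0.47 with KO 5 and 0.11 without it.

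**Figure D2:**
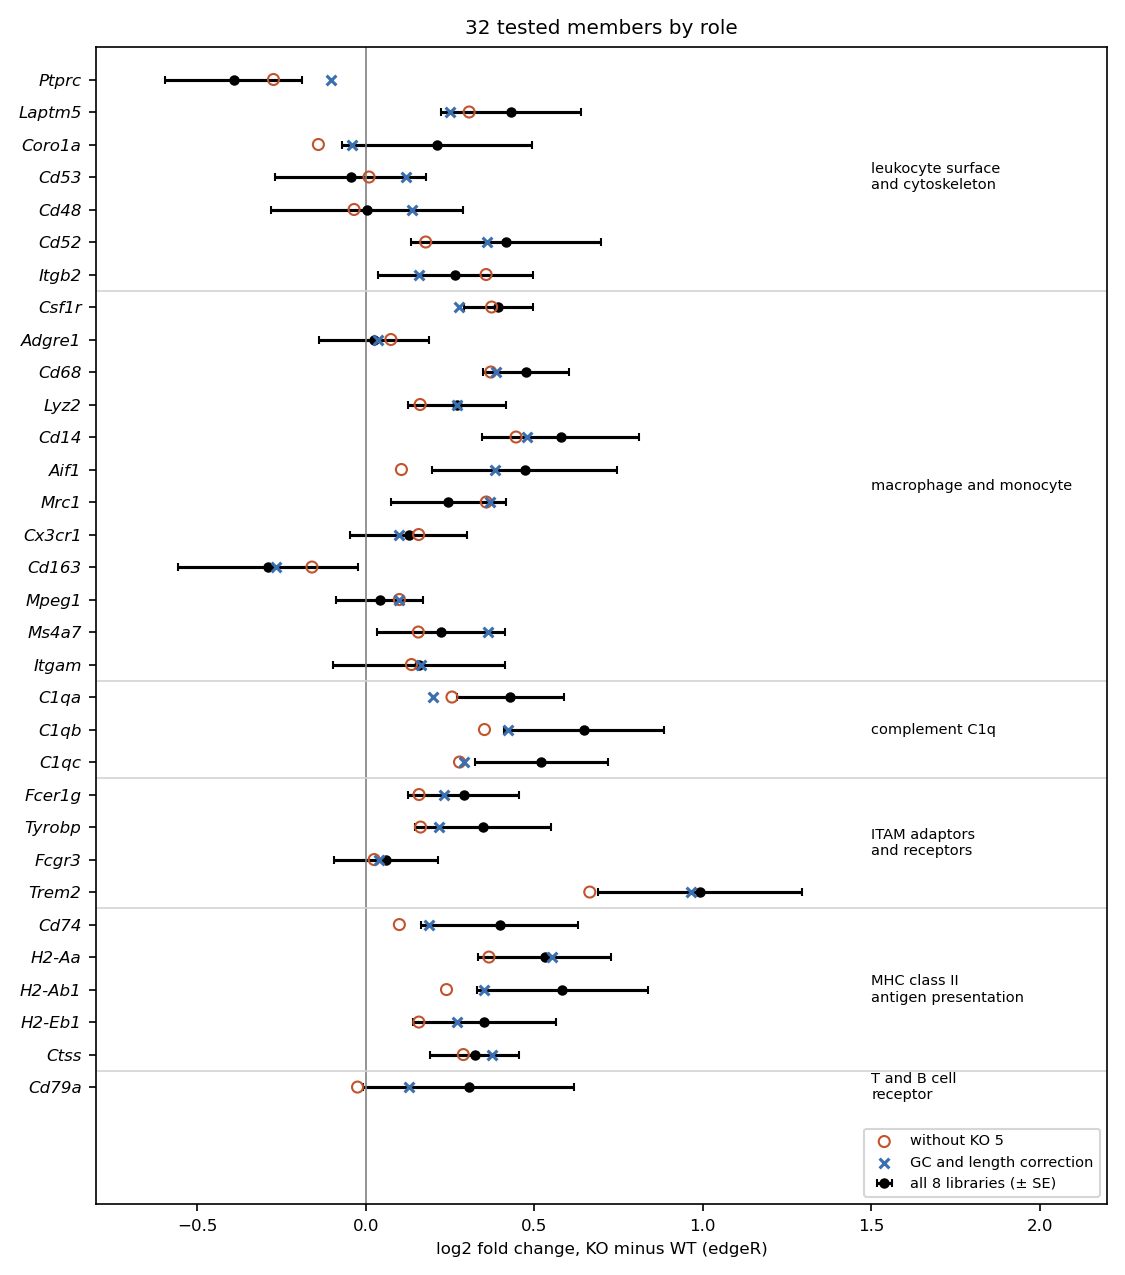
Log2 fold change of KO against WT (x axis) of the 32 tested members, ordered by role (y axis); black points with bars are the fit with all 8 libraries ± SE, open circles the fit without KO 5, and crosses the fit corrected for GC content and gene length. Trem2 lies farthest right at 0.99, Ptprc farthest left at -0.39, and most open circles lie nearer to 0 than the black points.

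Immunoreceptors without a signalling tail of their own use the adaptors Tyrobp (DAP12) and Fcer1g (the Fc receptor gamma chain), which carry ITAM motifs and recruit the kinase Syk. Trem2, a lipid receptor of macrophages, microglia and osteoclasts that pairs with Tyrobp, was at 3.21, 1.91, 3.89 and 4.01 CPM in WT. In KO 1, 3, 4 and 5 it was at 4.98, 4.50, 5.98 and 10.5 CPM. It had the largest log2 fold change of the members, 0.99 (SE 0.30, adjusted p = 0.178, from 0.024 to 0.54 over the alternatives), and the groups did not overlap. It was 0.67 without KO 5 and 0.96 after the GC and length correction. These levels rested on 40 to 82 reads a library in WT and 91 to 201 in KO.

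The adaptors had smaller values. Tyrobp was at 10.1, 9.45, 11.2 and 7.57 CPM in WT and at 13.3, 8.81, 10.2 and 16.6 CPM in KO, for a log2 fold change of 0.35 (SE 0.20, adjusted p = 0.409). KO 3 and KO 4 lay within the WT range, and the value was 0.16 without KO 5. Fcer1g was at 8.36, 8.26, 8.69 and 7.63 CPM in WT and at 11.0, 8.63, 8.01 and 12.7 CPM in KO, for a log2 fold change of 0.29 (SE 0.16, adjusted p = 0.398). Without KO 5 it was 0.16. Its 4 WT libraries were the most alike of any member, with a coefficient of variation of 5.37%, below the 7.89% that counting error alone gives at its read number. Fcgr3, the low-affinity IgG receptor that uses Fcer1g, was at 8.5 ± 1.26 and 8.87 ± 0.985 CPM (log2 fold change 0.061, approximate 95% interval -0.24 to 0.36). Near-identical stretches of Fcgr2b can share reads with Fcgr3. A difference of Trem2 from Tyrobp was not tested.

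C1q starts the classical complement pathway and also tags dying cells for uptake. It is built from equal numbers of 3 chains, encoded by C1qa, C1qc and C1qb side by side on chromosome 4 (GRCm38, 136880129 to 136898803, minus strand), and macrophages are its main source. All 3 chains had positive values and were higher at an unadjusted p of 0.05 (8.7% of all tested genes), and KO 5 stood above the rest for each chain. C1qa was at 20.5, 18.9, 22.3 and 22.3 CPM in WT and at 27.2, 21.8, 26.3 and 37.9 CPM in KO. C1qb was at 17.3, 16.8, 16.5 and 24.5 CPM in WT and at 27.0, 19.2, 25.7 and 45.8 CPM in KO. C1qc was at 14, 14.6, 15.9 and 19.1 CPM in WT and at 20.4, 17, 20.4 and 33.4 CPM in KO. In each case KO 3 fell within the WT range and the other KO libraries lay above it.

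The log2 fold changes of C1qa, C1qb and C1qc were 0.43 (SE 0.16), 0.65 (SE 0.24) and 0.52 (SE 0.20), with adjusted p of 0.245, 0.242 and 0.253 in edgeR. They were 0.26, 0.35 and 0.28 when KO 5 was left out and 0.20, 0.42 and 0.29 when GC content and length were corrected for. C1qc then lost the unadjusted call in both fits, and C1qa lost it in the corrected one. The 3 chains are not independent evidence, since they share cells, locus and libraries. Per kilobase of gene length, C1qa and C1qb were at 20.2 ± 1.56 and 17.3 ± 3.5 CPM per kb in WT, and C1qc at 8.23 ± 1.18. In KO they were at 27.2 ± 6.56, 27.0 ± 10.5 and 11.8 ± 3.76 CPM per kb. C1qc was thus the lowest chain on this scale in both groups; the table gives it the longest gene length of the 3.

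RefSeq promoter windows (GRCm38.p6, 250 bases before to 50 after a start site) were at hand for 24 of the 33 members. Csf1r, Itgb2, Cd74, Cd52, H2-Ab1, C1qa, Tyrobp, Cd14 and Adgre1 were not searched. They are shown for chains of C1q and of MHC class II because all chains had positive values. Myeloid genes are known to be driven by the ETS factor PU.1. The core AGGAAGT, which other ETS factors also bind, was searched on both strands after the sequences were seen, and capitals mark it here, read on the opposite strand.
C1qb: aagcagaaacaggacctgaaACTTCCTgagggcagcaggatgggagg
C1qc: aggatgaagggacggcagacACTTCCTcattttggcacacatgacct
The C1qb stretch is chr4:136886227-136886273 and the C1qc stretch chr4:136893083-136893129, both on the minus strand, and each lies before the start site. The core was found in 10 of the 28 windows of the 24 members, those of C1qb, C1qc, Ctss, Lyz2, Mrc1, Ptprc, Cd53, Cd3e and Cd79a, and in 9.35% of all 32851 windows. A match of these letters is a description and not a binding site.

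MHC class II molecules carry peptides to the surface of antigen-presenting cells. H2-Aa and H2-Ab1 encode the chains of I-A, H2-Eb1 a chain of I-E, Cd74 the invariant chain that guards the groove, and Ctss the cathepsin that trims it. In C57BL/6 mice the partner chain of H2-Eb1 is not made. All 5 genes had positive values (median log2 fold change 0.40). Of these, 3, H2-Aa, H2-Ab1 and Ctss, were higher at an unadjusted p of 0.05 (8.7% of all tested genes). H2-Ab1 lost this with the GC and length correction, and H2-Aa and H2-Ab1 lost it without KO 5. The median was 0.24 without KO 5 and 0.10 without KO 1 and KO 5.

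H2-Aa was at 11.5, 10.6, 7.79 and 13.1 CPM in WT and at 16.2, 12.1, 13.2 and 20.6 CPM in KO, for a log2 fold change of 0.53 (SE 0.20, adjusted p = 0.247). H2-Ab1 was at 11.7, 11.3, 8.07 and 10.3 CPM in WT and at 14.4, 10.3, 12 and 25.4 CPM in KO, for a log2 fold change of 0.58 (SE 0.25, adjusted p = 0.302). H2-Eb1 was at 12.1, 9.35, 7.5 and 12 CPM in WT and at 13.1, 9.41, 11.6 and 18 CPM in KO, for a log2 fold change of 0.35 (SE 0.21, adjusted p = 0.427). WT 4 was the lowest and KO 5 the highest library for all 3 chains, and KO 3 lay within the WT range for each. Without KO 5 the values were 0.37, 0.24 and 0.16.

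Cd74 had its highest level in KO 5 too. It was at 25.6, 20.7, 17.5 and 18.5 CPM in WT, at 26.5, 18.4 and 21.2 CPM in KO 1, 3 and 4, and at 42.3 CPM in KO 5. Its log2 fold change of 0.40 (SE 0.23, adjusted p = 0.411) was 0.10 without KO 5 and -0.054 without KO 1 and KO 5. Ctss depended less on KO 5. It was at 14.5, 14, 16.4 and 18.1 CPM in WT and at 19.0, 16.8, 21.9 and 21.1 CPM in KO. Only KO 3 lay within the WT range, and the log2 fold change was 0.32 (SE 0.13, adjusted p = 0.278), 0.29 with KO 5 left out and 0.38 after the GC and length correction.

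Class II genes are controlled through paired X and Y boxes before the start site. An X-like word, CTNGCAAC, and the Y word CTGATTGG were searched on both strands, again chosen after the sequences were seen, and capitals mark them in order.
H2-Aa: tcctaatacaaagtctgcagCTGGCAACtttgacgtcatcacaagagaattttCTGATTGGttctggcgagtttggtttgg
H2-Eb1: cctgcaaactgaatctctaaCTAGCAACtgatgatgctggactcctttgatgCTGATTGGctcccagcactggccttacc
The H2-Aa stretch is chr17:34287847-34287927 on the minus strand and the H2-Eb1 stretch chr17:34305753-34305832 on the plus strand (GRCm38.p6). The words were 25 and 24 bases apart. Of all 32851 windows, 3.42% held the X-like word, 4.1% the Y word, and 11 held the X-like word followed by the Y word within 60 bases. H2-Aa and H2-Eb1 were the members among those 11.

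Genes shared by most leukocytes gave no common direction. Of 7, 5 had positive values and the median log2 fold change was 0.21, or 0.010 without KO 5 and -0.0040 in limma voom. Ptprc encodes CD45, the phosphatase on the surface of all nucleated blood cells. It was at 14.1, 15.4, 17.1 and 9.10 CPM in WT and at 12.8, 11.1, 10.8 and 7.85 CPM in KO. Its log2 fold change was -0.39 (SE 0.20, adjusted p = 0.362), the lowest of the members, and it was -0.10 once GC content and length were corrected for. The groups overlapped through WT 5.

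Laptm5, a lysosomal protein of blood cells, was at 16.8, 17.3, 18.9 and 10.5 CPM in WT and at 23.4, 21.1, 14.7 and 26.7 CPM in KO, for a log2 fold change of 0.43 (SE 0.21, adjusted p = 0.334). It was 0.28 without WT 5, 0.25 with the GC and length correction and 0.15 in limma voom. Coro1a, a coronin of the leukocyte cytoskeleton, was at 23.5, 29.0, 23.9 and 13.8 CPM in WT and at 24.9, 18.9, 17.7 and 43.2 CPM in KO. Its log2 fold change was 0.21 with all libraries, -0.14 with KO 5 left out and -0.0395 after the GC and length correction, so no direction held. Bola2 overlaps it with 121% as many reads. Itgb2, the integrin chain shared by CD11a and CD11b, was at 8.56 ± 2.28 CPM in WT against 10.3 ± 2.75 CPM in KO. Cd52, a small surface glycoprotein, was at 3.89 ± 1.18 and 5.21 ± 1.78 CPM and overlaps Crybg2, which had 88.2% as many reads.

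Cd53, a tetraspanin, was at 6.12 ± 1.74 CPM in WT against 5.95 ± 1 CPM in KO, and its sign changed with the GC and length correction (0.12). Cd48, the ligand of the receptor CD244, was at 1.49 ± 0.22 and 1.49 ± 0.44 CPM, from 21 to 44 reads a library, a number at which counting error alone gives a coefficient of variation of 18.6% in WT. Its log2 fold change was 0.0037 (approximate 95% interval -0.56 to 0.56) and was negative, at -0.0072 to -0.044, with each other scaling tried.

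Of the lymphocyte receptor genes, the B cell gene had reads to test and the T cell gene did not. Cd79a, a signalling chain of the B cell receptor, was at 6.31, 7.40, 5.74 and 3.5 CPM in WT and at 7.77, 5.28, 4.01 and 11.5 CPM in KO. Its log2 fold change was 0.31 (SE 0.31, adjusted p = 0.640) with all libraries and -0.024 without KO 5. Cd3e, a chain of the T cell receptor complex, had 3, 3, 3 and 5 reads in WT and 1, 5, 2 and 0 in KO 1, 3, 4 and 5. A count of 0 in KO 5 allows up to 0.156 CPM (3 reads, counting error only). Per kilobase, Cd79a was at 3.94 ± 1.13 CPM per kb in WT and Cd3e at 0.045 ± 0.016. Other B cell markers summed to 23.7 to 55.7 CPM in WT against 29.4 to 57.6 CPM in KO, with positive values for 2 of 7 tested genes and a median of -0.10. Of 14 T and NK cell markers, 6 passed the count filter.

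**Figure D3:**
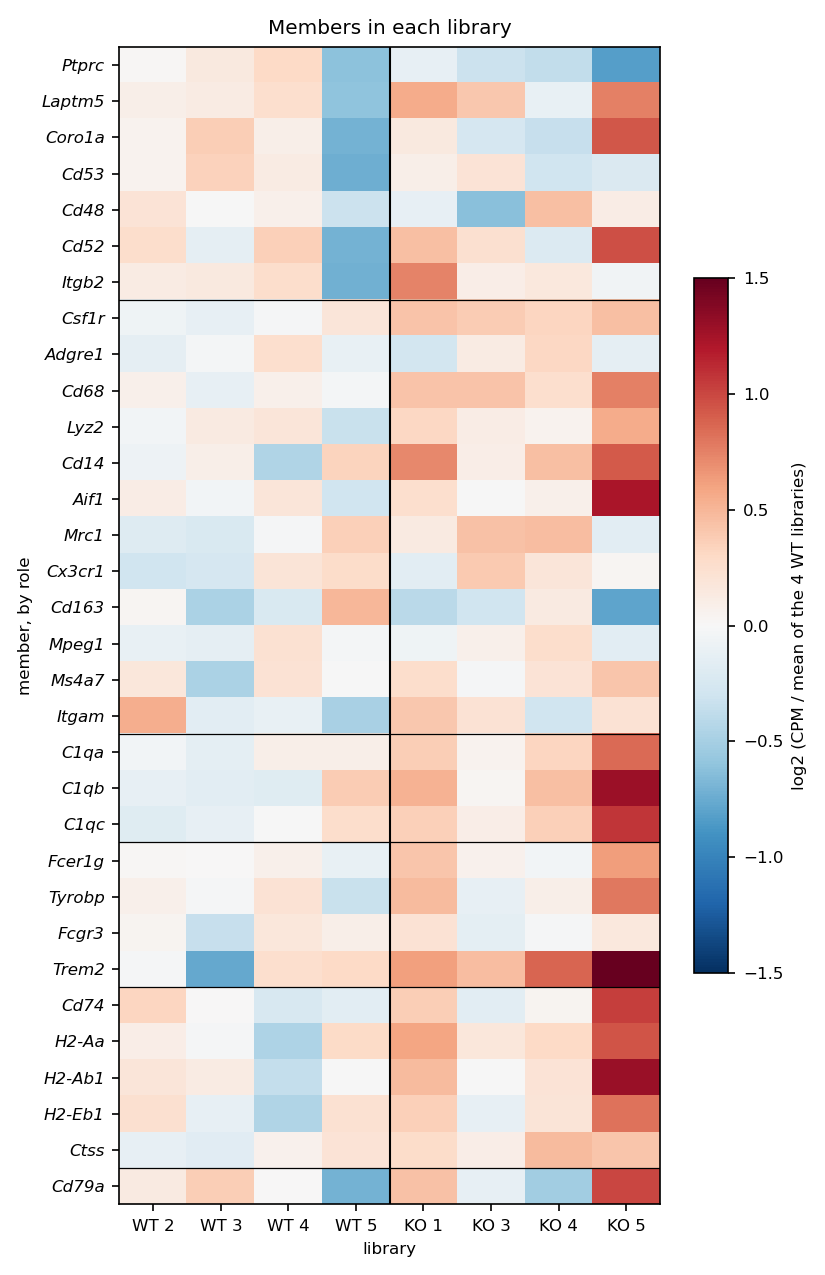
Each cell is the log2 of a member's CPM over its mean in the 4 WT libraries (colour scale), for the 32 tested members (y axis, by role) in the 8 libraries (x axis). The KO 5 column is red for C1q and MHC class II genes and deepest blue for Ptprc and Cd163. It is paler blue for Cd53, Mrc1, Mpeg1, Adgre1 and Itgb2. The WT 5 column is deepest blue for Ptprc, Laptm5, Coro1a, Cd53, Cd52, Itgb2 and Cd79a.

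Levels per kilobase placed the members on one scale. In WT the order began with Lyz2 at 63.7 ± 9.84 CPM per kb, followed by C1qa (20.2 ± 1.56), C1qb (17.3 ± 3.5), Cd74 (14.6 ± 2.58), Tyrobp (14.4 ± 2.26) and Cd68 (14.2 ± 0.94). From C1qa to Cd68 neighbours lay within their spread of each other, and Lyz2 stood apart. Ctss was at 11.6 ± 1.39 and Fcer1g at 9.42 ± 0.51 CPM per kb. At the low end were Ptprc (0.76 ± 0.19), Trem2 (0.66 ± 0.20), Cd163 (0.56 ± 0.17) and Itgam (0.55 ± 0.18), which did not differ beyond their spread, and Cd3e. The lengths are those of the deposited table, and 18313 bases for Ptprc counts far more than a single mature transcript, which lowers its value on this scale. Whether the lengths of Trem2 (4946 bases) and of other members do so too was not checked.

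The spread between libraries had structure within the members. KO 5 was the highest of the 8 libraries for 20 of 32 members and the lowest for 3, Ptprc, Cd163 and Mpeg1. Relative to the mean of KO 1, 3 and 4, KO 5 was higher for 24 members, from 0.65 times for Cd163 to 2.16 times for Aif1. For the 19 members under 2000 bases long the median ratio was 1.51, with 18 above 1. For the 9 members of 4000 bases or more it was 0.92, with 4 above 1. These are the lengths of the deposited table. Trem2 (4946 bases), at 2.03 times, is counted among the long genes by a length that was not checked. Across the 32 members, the Spearman correlation of the KO 5 deviation with GC content was 0.67 and with length -0.46. In the other 7 libraries these ran from -0.47 to 0.45 and from -0.31 to 0.50. These are correlations across genes that share 1 library, given as a description.

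**Figure D4:**
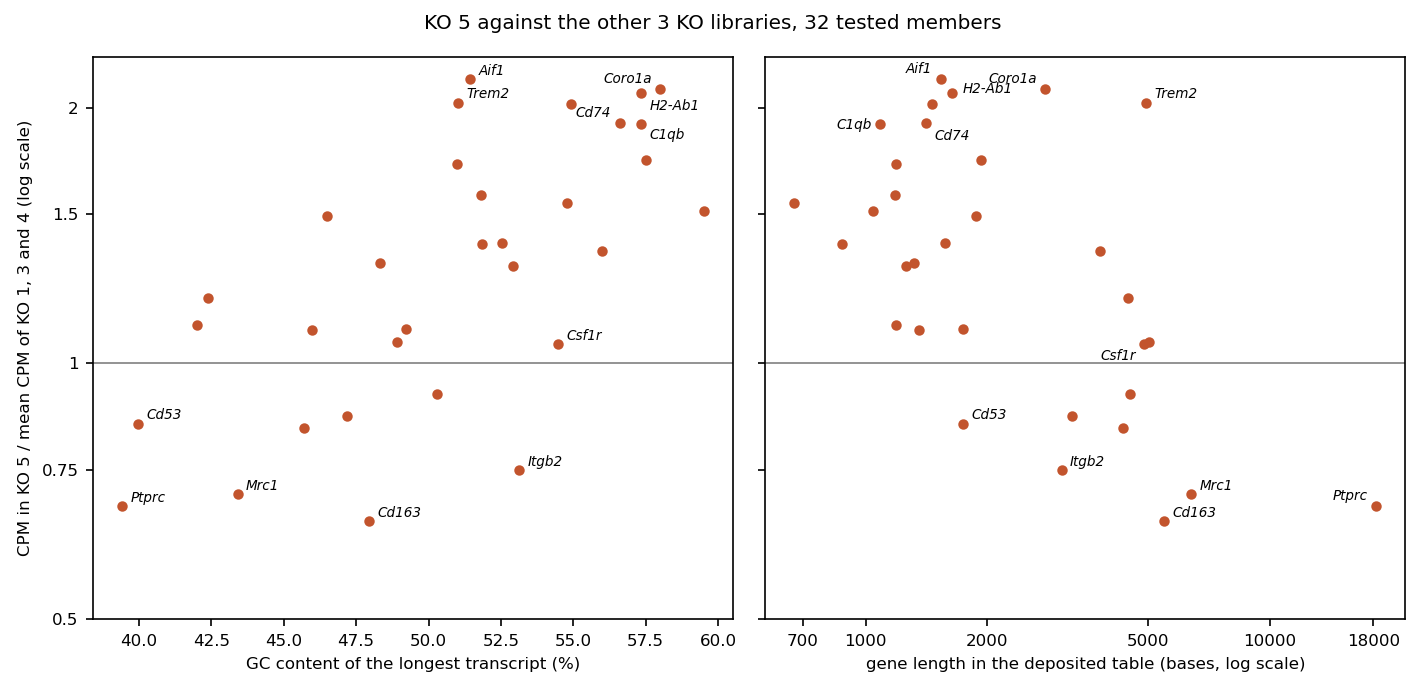
Ratio of the CPM in KO 5 to the mean CPM of KO 1, 3 and 4 (y axis, log scale) for the 32 tested members, against the GC content of the longest transcript (left) and the gene length on a log scale (right). Aif1 is highest at 2.16 and Cd163 lowest at 0.65. Of genes that are long by the deposited table, Ptprc and Mrc1 lie below 1 and Trem2 lies at 2.03.

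Over all tested genes, how far a library deviated had a Spearman correlation with GC content of -0.42 to -0.16 in WT, 0.31 in KO 1, -0.051 in KO 3, 0.023 in KO 4 and 0.37 in KO 5. With length it was 0.028 to 0.21 in WT, -0.13 in KO 1, 0.35 in KO 3, 0.14 in KO 4 and -0.44 in KO 5. GC values were thus higher in every KO library than in any WT library, and length values were not separated. With each library corrected for GC content and length, 29 of 32 members had a positive value (52% of all genes), 9 were higher at an unadjusted p of 0.05 (7.17%) and the median was 0.24. These were not the same genes: Coro1a turned negative and Cd53 positive, C1qa, C1qc and H2-Ab1 lost the unadjusted call, and Lyz2 and Mrc1 gained it. All KO values then lay above all WT values for 4 members (4.05% of all tested genes).

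WT 5 was the lowest library for 11 members, among them Laptm5, Coro1a, Cd53, Cd52 and Itgb2 of the leukocyte surface and cytoskeleton group. The 7 leukocyte surface and cytoskeleton genes summed to 45.8 CPM in WT 5 and to 76.5 to 84.0 CPM in WT 2, 3 and 4. Neutrophil markers summed to 130 CPM in WT 5 against 238 to 376 CPM in the other WT libraries, and B cell markers to 23.7 against 50.2 to 55.7 CPM. The sum of the macrophage and monocyte genes was 212 CPM in WT 5 against 209 to 236 CPM, although Lyz2, Aif1 and Itgam among them were lowest in WT 5. In KO, neutrophil markers summed to 150 to 371 CPM, within the WT range. All 11 neutrophil markers had negative log2 fold changes (46.9% of all tested genes), with a median of -0.090. At an unadjusted p of 0.05, 0 were lower (6.98%). Without WT 5, KO lay above WT for 8 members (9.8% of all tested genes) and below it for 1, Ptprc (8.32% of all tested genes). Without KO 3, KO lay above WT for 10 members (9.06%).

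Genes that work with the members were taken from 9 lists, 111 genes in all, of which 101 passed the count filter. By edgeR, 0 passed an adjusted p of 0.05 in either direction. At an unadjusted p of 0.05, 16 were higher (8.7% of all tested genes) and 1 was lower (6.98%), and the median log2 fold change was 0.17. In the MHC class II machinery, which includes the regulator Ciita and the peptide loader H2-DM, 8 of 12 had positive values with a median of 0.13. H2-DMb1 was at 4.38 ± 1.31 CPM in WT against 7.36 ± 2.74 CPM in KO, for a log2 fold change of 0.75 (SE 0.29), and Cd83, which keeps class II on the surface, at 1.93 ± 0.38 and 3.33 ± 1.40 CPM. Of the MHC class I genes, 11 of 14 had positive values (median 0.26). Nlrc5, the class I transactivator, was at 1.16 ± 0.23 and 2.04 ± 0.44 CPM, and Tapbp, the loading factor tapasin, at 87.9 ± 5.84 and 114 ± 20.9 CPM. Both overlap another gene with reads and are uncertain.

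The complement genes other than C1q had the highest median of the 9 lists, 0.40, which stayed at 0.40 with KO 5 left out and was 0.50 after the GC and length correction. Of 10 tested, 9 had positive values (53.1% of all tested genes) and 5 were higher at an unadjusted p of 0.05 (8.7%). C1ra, the protease that C1q activates, was at 14.2, 10.7, 12.2 and 16.7 CPM in WT and at 26.0, 19.6, 21.4 and 31.6 CPM in KO. The groups did not overlap (log2 fold change 0.87, SE 0.18, adjusted p = 0.085 in edgeR, from 0.0014 to 0.53 over the alternatives). C4b, the next component of the cascade, was at 2.49, 1.72, 1.61 and 1.53 CPM in WT and at 3.28, 3.26, 3.36 and 4 CPM in KO, for a log2 fold change of 0.92 (SE 0.22, adjusted p = 0.111). Its near copy C4a can share reads with C4b. Fibroblasts and other stromal cells are known to make both genes.

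Signals and transcription factors of the myeloid lineage had 9 of 13 positive values (median 0.23). Csf1, the growth factor that binds Csf1r, was at 13.8, 11.4, 12.2 and 15.1 CPM in WT and at 19.2, 14.6, 16.8 and 17.1 CPM in KO. KO 3 lay within the WT range, and the log2 fold change was 0.37 (SE 0.14, adjusted p = 0.245). Cebpb, a transcription factor of myeloid and other cells, was at 10.7 to 15.1 CPM in WT, 15.7 to 15.8 CPM in KO 1, 3 and 4, and 31.5 CPM in KO 5, and it overlaps another gene. Fc receptor and ITAM signalling had 11 of 14 positive values (median 0.10), with Fcgr2b at 0.24. The phagocyte oxidase had 3 of 6 (median 0.095), with Cyba at 0.31 and Rac2 at 0.24. The leukocyte cytoskeleton and integrins had 6 of 10 (median 0.073). There Itgax, the CD11c integrin of dendritic cells and macrophages, was at 1.38 ± 0.15 CPM in WT against 2.41 ± 0.42 CPM in KO with no overlap (log2 fold change 0.80, SE 0.23, adjusted p = 0.171), and Itga4 was at -0.43.

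Resident macrophage genes had 8 of 12 positive values (median 0.19). Among them P2ry6, a receptor for UDP, was at 17.4 ± 3.61 CPM in WT against 13 ± 0.77 CPM in KO, for a log2 fold change of -0.42 (SE 0.15). Monocyte and inflammatory genes had 8 of 10 (median 0.23), with Ccr1 at 0.43 and Plac8 at 0.33. The cytokine genes Tnf and Il6 and the chemokine genes Ccl2, Ccl3 and Ccl4 had too few reads to be tested.

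**Figure D5:**
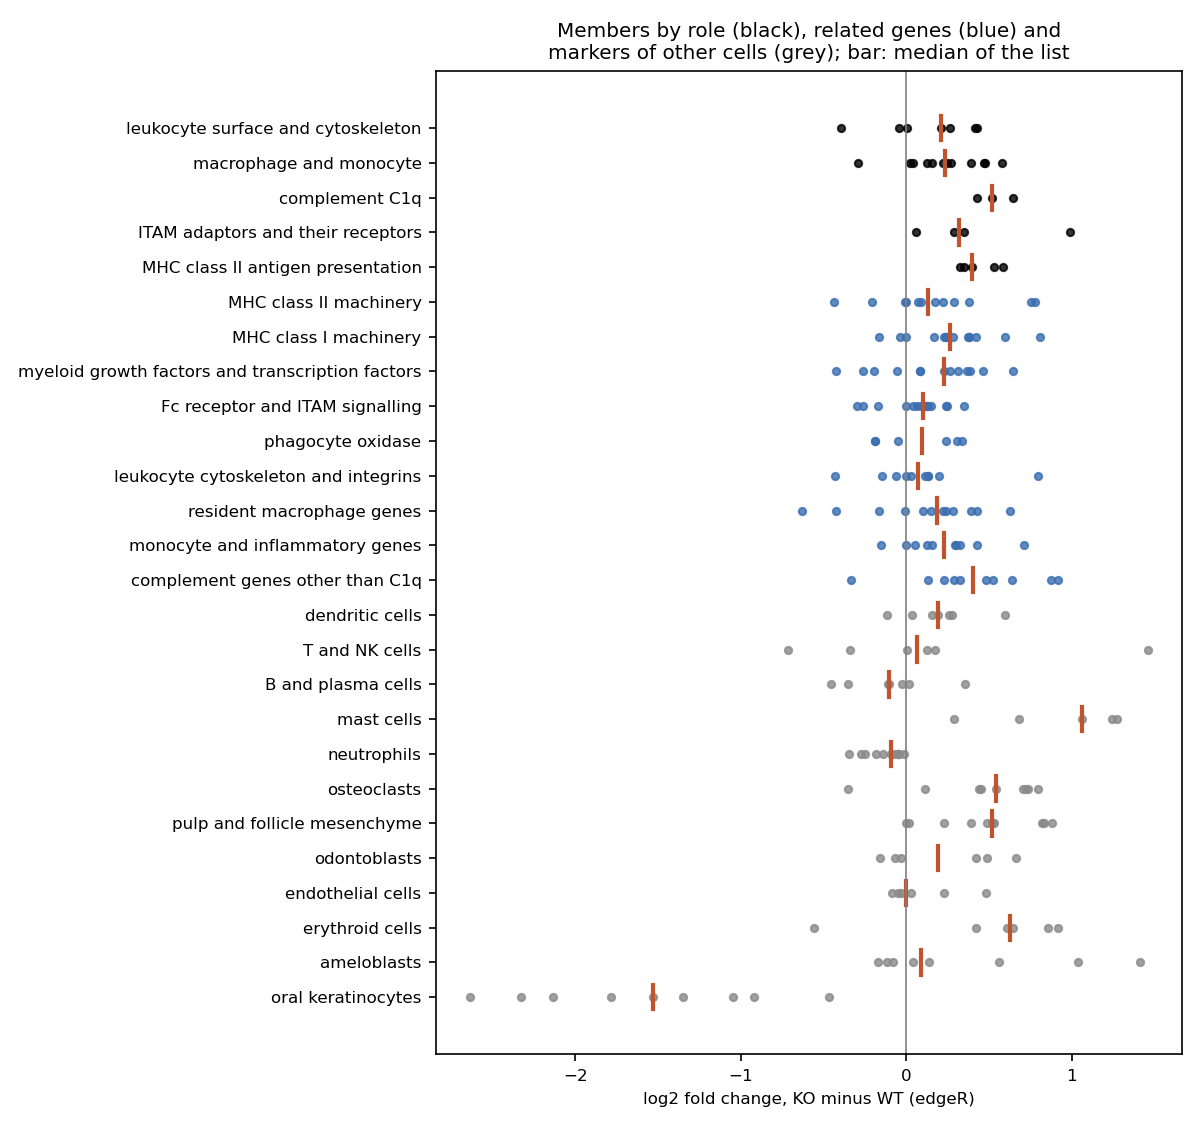
Log2 fold change of KO against WT (x axis) for each tested gene (points) of each list (y axis), with the median of the list as a bar; black lists hold the members, blue lists related genes, grey lists markers of other cells. C1q (median 0.52) lies to the right of the other member lists, mast cell markers are at 1.07 and oral keratinocyte markers at -1.53.

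Markers of other cells that could hold these transcripts had 0 genes past an adjusted p of 0.05 by edgeR in the lists that follow. Osteoclasts express Csf1r, Cd68, Ctss, Trem2 and Tyrobp. Their 10 markers summed to 502, 402, 438 and 272 CPM in WT and to 568, 465, 406 and 705 CPM in KO 1, 3, 4 and 5. Of 9 tested, 8 had positive values (53.1% of all tested genes), with a median of 0.54. At an unadjusted p of 0.05, 1 was higher (8.7% of all tested genes). Mmp9 was at 0.73 (SE 0.24) and Acp5 at 0.70 (SE 0.32), and Calcr was not tested for lack of reads. Pulp and follicle mesenchyme markers had 10 of 11 positive values (median 0.52, or 0.47 without KO 5 and 0.52 without KO 1 and KO 5). At an unadjusted p of 0.05, 6 were higher (8.7% of all tested genes), and KO lay above WT for 5 (5.5%). Col6a1 was at 129 ± 20.8 CPM in WT against 229 ± 42.3 CPM in KO (adjusted p = 0.080 in edgeR and 0.00048 in DESeq2). Mesenchyme sums were highest in KO 4 and lowest of the KO libraries in KO 5, where the sums of C1q and class II genes were highest. Single markers did not all follow the sum. Mfap4 was highest in KO 5 at 54.0 CPM, and Col6a1 was highest in KO 1 at 276 CPM. Levels of the other mesenchyme markers by library are not reported here. Erythroid markers were at 727 to 1979 CPM in WT against 1470 to 4601 CPM in KO, highest in KO 5, and endothelial markers at 297 to 320 and 308 to 368 CPM. Dendritic cell markers were sparse, at 10.9 to 12.8 CPM in WT against 11.9 to 15 CPM in KO. The part of these cells, and of library bias, in the values of the members was not tested.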

How the data were processed

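The authors deposited 1 table of counts, whole numbers of reads per Ensembl gene and library, not normalised. Per the labels' protocols, RNA was captured by polyA, fragmented and reverse transcribed. The submitters' processing notes name CASAVA and mm39; which aligner and counter were used, and whether by strand, is not given in the sources used here. Coordinates in the table match GRCm38: 98.8% of 54495 shared gene IDs have the start of GENCODE M21. Of the members, 4 overlap a gene with over 10% as many reads.

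Counts were fitted over 16205 genes (filterByExpr, minimum count 10, minimum total 15) with TMM scaling in edgeR 4.0.16 under R 4.3.3 by the robust quasi-likelihood test, two-sided, with Benjamini-Hochberg adjustment over all genes and a threshold of 0.05. SE is the log2 fold change over the root of F, and intervals are 1.96 SE. DESeq2 1.42.0 and limma 3.58.1 (voom, quality weights) were alternatives. The GC and length correction used splines as offsets. Scripts were tested on simulated data.

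All members are named. Of other lists, up to 4 genes past the threshold or else the 2 with the smallest p were to be named; some of these are not reported here. Members and lists were chosen with earlier results of these data known.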

Additional observations from a re-analysis of the deposited data

Results flagged for a closer look

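In groups of 4 libraries, 16 of 208 sets of values had 1 library far from the other 3, by Dixon's criterion, which chance alone meets in about 1 in 20 sets. Of the 66 sets from members, 3 did so. Aif1 stood out in KO 5 at 8.27 CPM, C1qb in WT 5 at 24.5 CPM, and Cd3e in WT 5 at 0.283 CPM, which is 5 reads.

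Among related genes, KO 5 was high for Cebpb (31.5 CPM) and C4b (4.003 CPM), and WT 2 was low for Itgax (1.16 CPM). Among markers of other cells, KO 5 was high for Cma1 (4.26 CPM) and Mfap4 (54.0 CPM), WT 5 for Bglap (1650 CPM) and WT 4 for Krt1 (18.9 CPM), while WT 3 was low for Cd22 (1.19 CPM). Of summed levels, the macrophage and monocyte members were high in WT 4 (236 CPM) and Fc receptor and ITAM signalling was low in KO 4 (273 CPM). B and plasma cell markers were low in WT 5 (23.7 CPM), where pulp and follicle mesenchyme (38101 CPM) and odontoblast markers (46541 CPM) were high.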

How the results depend on the processing

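Reads were fewest for Cd48 (21 to 44 a library), Itgam (35 to 73) and Cd163 (34 to 76). Over all genes, 5 passed an adjusted p of 0.05. That count was 2 with library totals, 464 with DESeq2, 1073 with limma voom, 241 with no filter on low counts, 13 with the GC and length correction, 11 without KO 1 and KO 5, and 0 to 55 on leaving out 1 library. Members past it were 2 in DESeq2 and 5 in limma voom, and 0 on leaving out any 1 library. Members at an unadjusted p were 4 without KO 1 and KO 5, where 6.55% of all tested genes were higher at that p. On leaving out 1 library they were 6 to 13 in either direction. The share of all tested genes that were higher was 7.97% without KO 5, and it is not given for the other libraries left out. Members whose groups did not overlap were 3 to 10 (9 without WT 5, 10 without KO 3). With 1 library left out, KO lay above WT for 6.79% to 9.8% of all tested genes and below it for 6.31% to 8.88%. The median of the members was 0.099 without KO 1 and KO 5 and 0.16 to 0.40 on leaving out 1 library. Non-overlap was not recomputed for the tests that change no level. Causes of these differences were not tested.

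The numbers 3, 4 and 5 are shared by both groups. Deviations of libraries with the same number had r = -0.14, -0.092 and -0.12. So few pairs cannot decide whether the numbers pair libraries. With the replicate block, 1 gene passed and 6 members were at an unadjusted p. With the GC and length correction and the block, 1 gene passed and 4 members were at that p. The share of all tested genes at an unadjusted p is not given for either fit, so these member counts cannot be judged against it.

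Signs changed for some members and related genes, not only for those near 0. Cd48 was -0.0084 with DESeq2 size factors, -0.0072 with the upper quartile, -0.044 with library totals, -0.0086 in DESeq2, -0.0040 in limma voom and -0.00020 above 1 CPM. With library totals, which moved the median of all genes to -0.027, Adgre1 was -0.015 and Mpeg1 -0.00053. In limma voom the leukocyte surface median was -0.0040, Coro1a -0.30, Cd163 0.075, Itgam -0.0028, Cd79a -0.30, Rac2 -0.14 and Igkc -0.010. With the GC and length correction Coro1a was -0.0395 and Cd53 0.12, and with the block added Coro1a was -0.052, Cd53 0.115, Cyba -0.012 and Rac2 -0.022. Without KO 1 and KO 5 the ITAM median was -0.0035, Coro1a -0.31, Itgam -0.018, Tyrobp -0.018, Fcgr3 -0.078, Cd74 -0.054, Cd79a -0.31, Cyba -0.088 and Rac2 -0.11. On leaving out 1 library, Coro1a ran from -0.14 to 0.36, Cd53 from -0.22 to 0.095, Cd48 from -0.18 to 0.16, Adgre1 from -0.083 to 0.115, Mpeg1 from -0.040 to 0.12, Fcgr3 from -0.039 to 0.12 and Cd79a from -0.024 to 0.51.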

Other observations

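Mast cells, tissue granulocytes that store proteases and histamine, had the highest median of the marker lists, although their genes were rare. All 5 tested markers had positive values, 4 of them at an unadjusted p of 0.05, with a median log2 fold change of 1.07. Of all tested genes, 53.1% had positive values and 8.7% were higher at that p. The median of the mast cell markers was 0.97 without KO 5, 0.56 without KO 1 and KO 5, and 0.77 in limma voom. The mast cell markers summed to 4.52 to 10.2 CPM in WT against 10.8 to 17.8 CPM in KO, so the groups did not overlap. Cma1, a chymase, was at 1.77, 1.29, 1.19 and 0.961 CPM in WT and at 2.95, 2.71, 2.72 and 4.26 CPM in KO, for a log2 fold change of 1.27 (SE 0.26, adjusted p = 0.085 in edgeR, from 0.0021 to 0.54 over the alternatives). Tpsb2, a tryptase, had a log2 fold change of 1.24 (SE 0.33, adjusted p = 0.141 in edgeR), and of 0.60 without KO 1 and KO 5. Ms4a2 and Fcer1a were not tested for lack of reads.

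Of 14 T and NK cell markers, 6 were tested. Their median log2 fold change was 0.063, or -0.19 without KO 5, when 2 of 6 had positive values. Trac, the constant region of the T cell receptor alpha chain, averaged 0.400 ± 0.078 CPM over the WT libraries and 1.11 ± 0.185 CPM over the KO libraries (SD, n = 4 in both), with no overlap (log2 fold change 1.46, SE 0.32, adjusted p = 0.101). It rested on 6 to 9 reads a library in WT and 17 to 26 in KO. Il7r, the receptor for interleukin 7, had a log2 fold change of -0.71 (SE 0.38, adjusted p = 0.376). All 9 oral keratinocyte markers had negative values with a median of -1.53, and 2 of them, Spink5 and Krt1, fell at adjusted p of 0.027 and 0.040 in edgeR, against 0.0309% of all tested genes called. The adjusted p of both reached 0.36 over the alternatives, and that of Krt1 was 0.080 without KO 5 and 0.22 without KO 1 and KO 5.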
